A study of Mus musculus with 8 samples.

Results

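Liver and yolk sac secreted protein genes encode blood plasma proteins that hepatocytes and the endoderm of the yolk sac make in the embryo, and 10 of them, Afp, Alb, Ttr, Rbp4, Apoa1, Apoa2, Apoa4, Apob, Fga and Fgb, were followed in ventricular tissue of E10.5 mouse hearts. They were chosen by their values in the library of control replicate 1, which stood out for several of them, from the 55291 gene symbols of the count table. All 10 were present in the table, and 9 had at least 8 counts in total and were tested. The exception was Alb, with 2 counts in all.

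RNA was sequenced from 4 Pkn2 cKO embryos and 4 control littermates on embryonic day 10.5. The cKO embryos were Pkn2 fl/fl and carried XMLC2-Cre, a driver expressed in cardiomyocytes, so that the other cells of the ventricle kept the gene. Controls were also Pkn2 fl/fl and lacked Cre, with the floxed alleles kept on C57BL/6N, which the sample labels list as C57BL/6. No agent was given, and the transgene itself is absent from the controls, so that Cre and loss of Pkn2 cannot be told apart.

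Libraries held 47559845 to 56660938 counts. Pkn2 fell to 81.2 ± 3.07 CPM (SD, n = 4) in cKO from 144 ± 9.85 CPM (SD, n = 4) in control, and control replicate 1, at 133 CPM, lay with its own group (log2 fold change −0.83, adjusted p = 7.67e-06, edgeR quasi-likelihood test). CPM are counts scaled to the TMM-normalized library size, and an adjusted p is a Benjamini-Hochberg value over the 26820 genes tested. Summed CPM of 12 cardiomyocyte genes, Tnnt2, Myh6 and Myh7 among them, ranged from 40244 to 44614 over the 8 libraries and was 42068 in control replicate 1.

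The liver of the embryo and the visceral endoderm of the yolk sac share a secretory program. Both make alpha-fetoprotein (Afp), the main fetal plasma carrier, and transthyretin (Ttr) with retinol-binding protein (Rbp4), which together carry retinol in plasma. They also make the apolipoproteins that form lipoprotein particles (Apoa1, Apoa2, Apoa4, Apob). Albumin (Alb) and the fibrinogen chains (Fga, Fgb) are classical products of hepatocytes. HNF4A is a transcription factor known to act on many such genes, and myocardium is not a main source of most of these proteins.

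The promoters of Afp, Alb and Fgb are shown because Alb and Afp are neighbours on chromosome 5 that control replicate 1 read very differently (0 and 860 counts), and because Fgb was read in that library alone. The sequences are the 140 bases before each RefSeq start on GRCm38.p6, at chr5:90490574-90490713 (plus strand) for Afp, chr5:90460730-90460869 (plus strand) for Alb and chr3:83049864-83050003 (minus strand) for Fgb. They run 5′ to 3′ in the direction of the gene, and capitals mark the letters GTTAAT or the reverse complement ATTAAC, a half-site known for homeodomain factors of the liver.
Afp: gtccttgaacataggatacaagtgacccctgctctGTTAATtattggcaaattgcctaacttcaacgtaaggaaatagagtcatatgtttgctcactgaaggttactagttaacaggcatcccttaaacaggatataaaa
Alb: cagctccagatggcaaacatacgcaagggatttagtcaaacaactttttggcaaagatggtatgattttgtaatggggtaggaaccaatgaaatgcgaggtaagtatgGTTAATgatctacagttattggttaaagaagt
Fgb: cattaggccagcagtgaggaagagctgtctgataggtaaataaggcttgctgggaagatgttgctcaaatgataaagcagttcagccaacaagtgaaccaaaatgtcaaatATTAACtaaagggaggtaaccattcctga

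Searched on both strands over the 250 bases before the start, these letters were present for 4 of the 9 genes with a RefSeq window (Afp, Alb, Fga and Fgb) and in 6.43% of all 32851 windows. The hit began 105 bases before the start in Afp, 32 in Alb, 43 in Fga and 29 in Fgb. The letters were chosen after the sequences had been seen, and a match is a description of the sequence only. Afp and Alb both carry them, while their counts in control replicate 1 differed.

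Control replicate 1 was the highest of the 8 libraries for all 9 tested genes, where 13.1% of all genes tested had their highest value in that library. These are the values the genes were selected on, so that the count has no test. Fga and Fgb reached the minimum of 8 counts only through that library, so that their place was fixed by the filter. Each library held the highest value of 8.77% to 16.8% of all genes, and Alb, which was not tested, had its 2 counts in control replicate 4. Control replicate 1 was not an extreme library by that measure, with 3520 such genes against 4502 in cKO replicate 4. Summed over the 10 genes it held 34.4 CPM, while the other 7 libraries held 2.51 to 7.56 CPM.

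**Figure D1:**
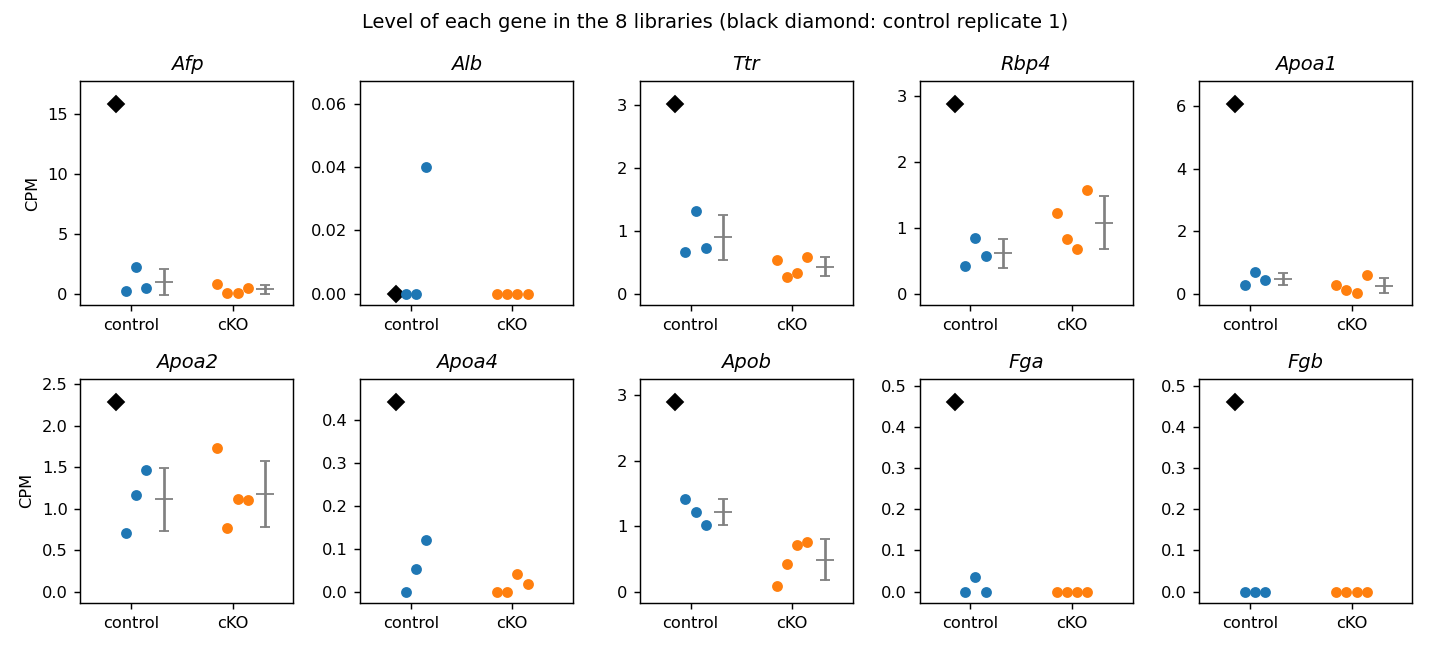
CPM of each of the 10 genes (vertical axis, a scale of its own for each gene) in the 4 control and 4 cKO libraries, 1 point a library. The black diamond is control replicate 1, and grey bars are the mean ± SD of controls 2 to 4 and of the 4 cKO libraries for the 6 genes with more than 6 counts in one of those libraries. The diamond lies above every other point except for Alb, where it is at 0.

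Among the plasma carriers, Afp (GRCm38 chr5:90490737-90508907, plus strand) had the largest step. Control replicate 1 held 860 counts of it, controls 2, 3 and 4 held 12, 127 and 25, and cKO replicates 1 to 4 held 42, 5, 4 and 26. Its 15.9 CPM in control replicate 1 were 34.2 times the median of the other libraries and 7.08 times the next highest, control replicate 3. Of all Afp counts, 78.1% came from control replicate 1.

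Ttr was read at 163 counts in control replicate 1, at 32, 74 and 36 in controls 2, 3 and 4, and at 27, 13, 16 and 33 in the cKO libraries. The 3.01 CPM of control replicate 1 were 5.11 times the median of the other 7 libraries. Control replicate 3 was again second. In CPM every cKO library lay below every control, with 0.589 in cKO replicate 4 and 0.664 in control replicate 2 as the nearest pair, although their raw counts were 33 and 32.

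Rbp4, the partner of Ttr in retinol transport (GRCm38 chr19:38116629-38125248, minus strand), followed another order. It had 156 counts in control replicate 1, 20, 48 and 29 in controls 2, 3 and 4, and 62, 40, 33 and 88 in the cKO libraries. Control replicate 1 stood at 3.47 times the median of the others, but here the second library was cKO replicate 4, and the cKO libraries overlapped controls 2 to 4.

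Alb goes against the grouping. Albumin, the main plasma protein of the liver, had 0 counts in 7 libraries, control replicate 1 included, and 2 counts in control replicate 4. A count of 0 allows up to 6 counts, or 0.106 to 0.125 CPM depending on the library. The Alb gene (GRCm38 chr5:90460897-90476602) ends 14134 bases before Afp begins, with no other gene of the table between them.

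The apolipoproteins were raised in control replicate 1 to unequal extents. Apoa1, the main protein of high density lipoprotein (GRCm38 chr9:46228580-46230466), had 329 counts there, 14, 39 and 22 in controls 2, 3 and 4, and 14, 6, 2 and 34 in the cKO libraries. That is 20.9 times the median of the other libraries and 8.82 times the highest of them. Groups overlapped without control replicate 1, since cKO replicate 4 read above controls 2 and 4.

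Apoa4, an apolipoprotein known from intestine and yolk sac (GRCm38 chr9:46240696-46243459), had 24 counts in control replicate 1. It had 0, 3 and 6 counts in controls 2, 3 and 4 and 0, 0, 2 and 1 in the cKO libraries, at or under the 6 counts that a reading of 0 allows. The ratio to the other libraries pooled was 13.2, with an exact 95% interval of 4.59 to 42.9 that covers counting error alone. Apoc3 lies between Apoa1 and Apoa4, which are 10229 bases apart, and had 0 counts in every library.

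Apoa2, the second protein of high density lipoprotein (GRCm38 chr1:171225054-171226379), moved least. It had 124 counts in control replicate 1, 34, 66 and 73 in controls 2, 3 and 4, and 87, 37, 54 and 62 in the cKO libraries. Control replicate 1 was 2.05 times the median and 1.33 times the highest of the others, the smallest step of the 9 tested genes.

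Apob, the structural protein of low density lipoprotein and the chylomicron (GRCm38 chr12:7977648-8016835), had 157 counts in control replicate 1, 68, 69 and 51 in controls 2, 3 and 4, and 4, 20, 34 and 42 in the cKO libraries. It stood at 3.87 times the median of the others. As with Ttr, each cKO library read below each control. The share of all genes so separated over 8 libraries is not given here, and control replicate 1 chose both genes. Against controls 2 to 4 that share was 5.49%.

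The fibrinogen chains were close to absent elsewhere. Fga (GRCm38 chr3:83026076-83033627) had 25 counts in control replicate 1, 2 in control replicate 3 and 0 in the other 6 libraries. Fgb (GRCm38 chr3:83040141-83049863) also had 25 counts in control replicate 1 and 0 in the other 7, which puts control replicate 1 at least 3.71-fold above the floor of 6 counts in any other library. Fgg, the third chain, which is not among the 10 genes, had 16 counts in control replicate 1 and 2 in control replicate 3. All 3 genes of the fibrinogen cluster on chromosome 3 were thus read in control replicate 1. None was read in the cKO libraries or in controls 2 and 4. All 3 reached 8 counts only through control replicate 1, so that their being highest there was fixed by the filter.

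On the log2 CPM scale, where 2 counts are added to each value before the logarithm, control replicate 1 lay above the median of the other 7 libraries by 4.99 for Afp, 4.22 for Apoa1, 3.69 for both Fga and Fgb, 3.09 for Apoa4, 2.28 for Ttr, 1.90 for Apob, 1.75 for Rbp4 and 1.01 for Apoa2. Over all genes tested the median of this difference was 0.00. Afp and Apoa1 ranked 3 and 5 among 26820 genes, Fga and Fgb shared rank 8, and Ttr, Apob, Rbp4 and Apoa2 ranked 56, 196, 257 and 1124. The spread among the 9 genes was therefore wide, from a near doubling of Apoa2 to rank 3 of all genes for Afp.

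Control replicate 3 was the next library in this order more often than any other. Of the 8 tested genes with counts in the other 7 libraries, 4 had their highest value among those libraries in control replicate 3 (Afp, Ttr, Apoa1 and Fga), and cKO replicates 1 and 4 and controls 2 and 4 had 1 each. Fga rests on 2 counts there, and the gene of control replicate 4, Apoa4, on 6, at or under the floor. Over 8 libraries, control replicate 3 held the highest value of 12.3% of all genes. The share among these 7 libraries is not given here. The mean centred log2 CPM over the 9 genes was 2.62 in control replicate 1, 0.42 in control replicate 3, and between −0.97 and −0.03 in the remaining 6. Ttr had the profile nearest to that mean (root mean square difference 0.33) and Afp the one farthest from it (1.18).

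Compared per length, on the TPM scale, the order of the genes changed in control replicate 1. Apoa2 had the highest TPM in each of the other libraries, with a range of 2.87 to 6.34, followed by Rbp4 (0.584 to 2.89), Ttr (0.317 to 1.86), Apoa1 (0 to 1.18) and Afp (0 to 1.87), by the medians. Ranges of neighbours in this order overlapped. In control replicate 1 Afp came first at 13.2 TPM and Apoa1 second at 10.1 TPM, ahead of Apoa2 at 8.25 TPM. Of the summed TPM of the 10 genes, Apoa2 held 19.2% in control replicate 1 and 41.1% to 73.1% elsewhere, whereas Afp held 30.7% there and 0% to 17.1% elsewhere. Of the TPM values, 5 were listed at 0 where the count table held 2 to 5 counts, so that a TPM of 0 is no sign of absence here.

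**Figure D2:**
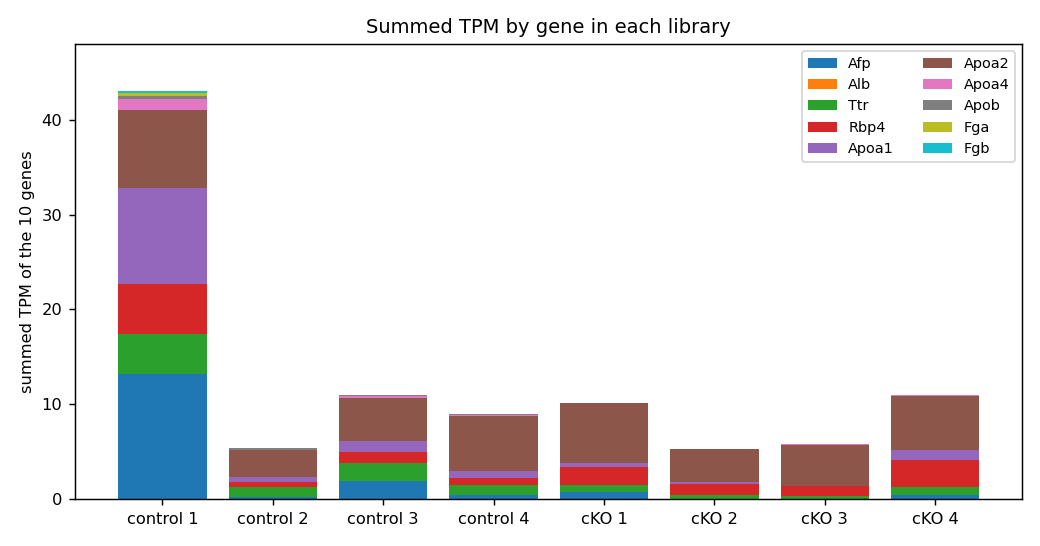
Summed TPM of the 10 genes in each library (vertical axis, bars from 0), divided by gene. Control replicate 1 reached 43.0 TPM and the other libraries between 5.29 and 11.02 TPM, and the Afp and Apoa1 segments are the largest in control replicate 1 while Apoa2 is the largest in every other bar.

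The groups were then compared with and without control replicate 1. The fit of 4 cKO against 4 control libraries holds the values by which the genes were selected, so that its results are a description. None of the 9 genes reached an adjusted p of 0.05 there, against a background of 0.343% of all genes called lower and 0.515% called higher in cKO, and 7 of 9 had an unadjusted p under 0.05, as did 3436 of all 26820 genes. The fit without control replicate 1 leaves out the library that stood out, although the other 7 were the level it was judged against, and its background was 0.164% called lower and 0.0895% called higher. Fga and Fgb, with 2 and 0 counts left, could not be called there. None of the other 7 genes was called, and 3 of them (Ttr, Apob and Rbp4) had an unadjusted p under 0.05, as did 2802 genes in all. DESeq2 called 2 genes in the fit of all libraries (Ttr and Apob) and none in the fit without control replicate 1. The share of all genes that DESeq2 called is not given here.

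Ttr gave 0.432 ± 0.155 CPM (SD, n = 4) in cKO and 0.897 ± 0.356 CPM (SD, n = 3) in controls 2 to 4. The log2 fold change was −1.71 (SE 0.44, edgeR adjusted p = 0.082) with all libraries and −1.05 (SE 0.36, edgeR adjusted p = 0.286) without control replicate 1. Its groups did not overlap in CPM in either set of libraries. With control replicate 3 also left out the log2 fold change was −0.66.

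Apob gave 0.487 ± 0.310 CPM (SD, n = 4) in cKO and 1.22 ± 0.194 CPM (SD, n = 3) in controls 2 to 4. Its log2 fold change was −1.74 (SE 0.45, edgeR adjusted p = 0.0867) with all libraries and −1.31 (SE 0.45, edgeR adjusted p = 0.292) without control replicate 1. For both Ttr and Apob the exact two-sided permutation test on log2 CPM over 3 control and 4 cKO libraries gave p = 0.0571, the smallest value it can give. Every cKO library lay below controls 2 to 4 for these 2 of the 7 genes that reached 8 counts without control replicate 1. The same held for 5.49% of all genes tested, and for 5.57% of the 26322 with 8 counts in those libraries.

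Afp differed by a log2 fold change of −3.65 (SE 0.99, edgeR adjusted p = 0.103) with all libraries and −1.42 (SE 0.72, edgeR adjusted p = 0.516) without control replicate 1. What remained rested on control replicate 3: without it as well the log2 fold change was 0.00. Apoa1 moved from −2.79 (SE 0.85, edgeR adjusted p = 0.139) to −0.82 (SE 0.61, edgeR adjusted p = 0.700), and leaving out a further library moved the latter from −0.44 (without control replicate 3) to −1.66 (without cKO replicate 4). In both genes the cKO libraries overlapped controls 2 to 4.

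Rbp4 changed direction. With all libraries its log2 fold change was −0.13 (SE 0.47, edgeR adjusted p = 0.952), and without control replicate 1 it was 0.81 (SE 0.34, edgeR adjusted p = 0.416), with 1.08 ± 0.401 CPM (SD, n = 4) in cKO and 0.615 ± 0.219 CPM (SD, n = 3) in controls 2 to 4. The exact permutation test on 3 against 4 libraries gave p = 0.171. Ttr and Rbp4, which act as a pair in plasma, thus had fold changes of opposite sign in the fit without control replicate 1, and neither passed the adjusted threshold.

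Apoa2 stayed near 0, at −0.25 (SE 0.32, edgeR adjusted p = 0.821) with all libraries and 0.092 (SE 0.31, edgeR adjusted p = 0.962) without control replicate 1. No fold is given between cKO and controls 2 to 4 for Apoa4, Fga and Fgb, whose libraries were at or under 6 counts in both groups. Over the 6 genes above that level the median log2 fold change was −1.73 with all libraries and −0.94 without control replicate 1, with 4 of the 6 below 0. Over all genes tested these medians were 0.00 and 0.01, and 48.8% of all genes were below 0 without control replicate 1.

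**Figure D3:**
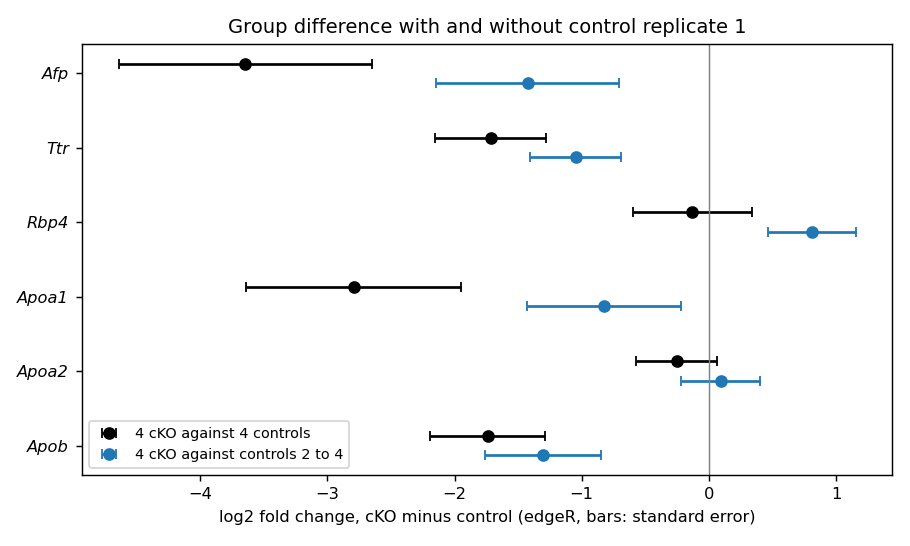
log2 fold change of cKO minus control (horizontal axis) with its standard error, from edgeR, for the 6 genes with more than 6 counts in a library other than control replicate 1. Black points use 4 control libraries and blue points controls 2 to 4: all 6 blue points lie to the right of the black ones, and Rbp4 and Apoa2 cross from below 0 to above it. Control replicate 1 was the highest library for each of these genes, by which they were chosen, so that a shift to the right was fixed in advance.

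Because bulk tissue was sequenced, more cells of a type in a library and more RNA per cell cannot be told apart. Marker lists of the tissues that make these proteins were therefore read in the same libraries. Of 31 further secreted plasma protein genes, 22 were tested, and control replicate 1 was the highest library for 8 of them against the 13.1% of all genes. The 8 were Fgg, Spp2, Plg, Serpina1b, Ambp, Apom, Itih3 and Ahsg, of which the 5 named before Apom reached 8 counts only through that library. Spp2, a secreted phosphoprotein of liver and bone, had the largest difference, with 36 counts in control replicate 1, 4 in control replicate 3 and 0 in the other 6 libraries (log2 difference 4.18). Plg, the precursor of plasmin, had 22 counts there, 2 each in controls 3 and 4 and 0 in the cKO libraries.

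Other plasma protein genes did not share the step, or had no counts that could show it. Apoe, which many tissues express, had 8584 counts in control replicate 1 and 7329 to 12791 in the others. Apoc1 had 54 counts there and 28 to 86 elsewhere, and Hp, the hemoglobin scavenger haptoglobin, was the lowest of the list with a log2 difference of −0.89. Vtn, Apoa5, Apoc3 and Apoc2 had 0 counts in every library, so that their counts cannot show a step. In TPM, Apoc2 stood at 0.698 in control replicate 1 and at 0 to 0.173 elsewhere. Summed over the list, CPM was 180 in control replicate 1 and 163 to 250 in the other libraries, a sum that Apoe and Trf dominate.

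Itih3, a heavy chain of the inter-alpha-trypsin inhibitor that binds hyaluronan, was the only gene of that list called between the groups. It had 62, 41, 54 and 40 counts in controls 1 to 4 and 21, 5, 22 and 13 in cKO replicates 1 to 4. Each cKO library read below each control, a separation whose share over all genes in 8 libraries is not given here. The log2 fold change was −1.63 (edgeR adjusted p = 0.0465) over all libraries. Without control replicate 1 it was −1.52 (edgeR adjusted p = 0.148) and did not pass. The call was also lost with any other library left out except cKO replicate 3, and under limma-voom and filterByExpr. Of the 22 genes tested, 1 was called lower and 0 higher with all libraries, and 0 were called without control replicate 1, where 4 had an unadjusted p under 0.05 by edgeR and DESeq2 also called 0.

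Transcription factors of hepatic and extraembryonic endoderm were low in every library apart from those that heart tissue also expresses. Hnf4a, a factor of both hepatic and extraembryonic endoderm, had 10 counts in control replicate 1, 2 in control replicate 3, 2 and 6 in cKO replicates 1 and 4, and 0 in the other 4 libraries. It was the 1 gene of 9 tested with its highest value in control replicate 1. Onecut1 had 0 counts in all libraries. Summed CPM of this list was 66.5 in control replicate 1 and 64.4 to 74.5 in the others, most of it from Prox1.

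Liver enzymes and receptors gave 1 of 8 tested genes with the highest value in control replicate 1, Asgr1, the asialoglycoprotein receptor, at 13 counts there and 1 to 13 elsewhere. Cps1, the entry enzyme of the urea cycle, was lower there than in the other libraries, with 12 counts against 24 to 77. Fabp1, the liver fatty acid-binding protein, had 0 counts in every library. Summed CPM was 3.99 in control replicate 1 and 3.94 to 7.19 in the others.

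Markers of yolk sac endoderm showed 6 of 13 tested genes with the highest value in control replicate 1. S100g, a calcium-binding protein, had 38 counts in control replicate 1, 30 in control replicate 3, 4 in control replicate 4, 2 and 8 in cKO replicates 3 and 4, and 0 in the others (log2 difference 3.21). Cldn2, a tight junction protein, had 16 counts in control replicate 1 and 12 in control replicate 3, against 0 to 4 elsewhere. Amn and Cubn, which form the endocytic receptor of visceral endoderm, gave 133 counts against 33 to 95, and 222 counts against 122 to 198. In CPM, Cubn in control replicate 1 was 1.02 times the highest of the others. Soat2, which esterifies cholesterol, was lowest of the list at −0.50. The remaining genes of the 6 were Fxyd2 and Pla2g12b. Besides Soat2, the genes not highest there had log2 differences of 0.18 (Slc39a8), 0.07 (Lrp2), −0.05 (Rhox5), −0.06 (Entpd2), −0.09 (Dpp4) and −0.11 (Slc13a4). Summed CPM of the list was 92.3 in control replicate 1 and 69.0 to 113 in the others, with the highest value in control replicate 3. Slc39a8, Dpp4 and Lrp2 dominate this sum.

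Other tissues that border the heart were read in the same way. Of 7 tested epithelial genes, 1 was highest in control replicate 1, Cldn6, with 18 counts there, 10 in control replicate 3 and 0 to 4 elsewhere. Septum transversum and mesothelium genes gave 1 of 10, red cell genes 0 of 10, cardiomyocyte genes 2 of 12, and the enzymes and receptors that handle lipoproteins and retinol, such as Lpl and Stra6, 2 of 11. Summed CPM of red cell genes was 2491 in control replicate 1 and 1410 to 4911 in the others. The part of liver or yolk sac RNA in the difference of control replicate 1 was not tested.

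**Figure D4:**
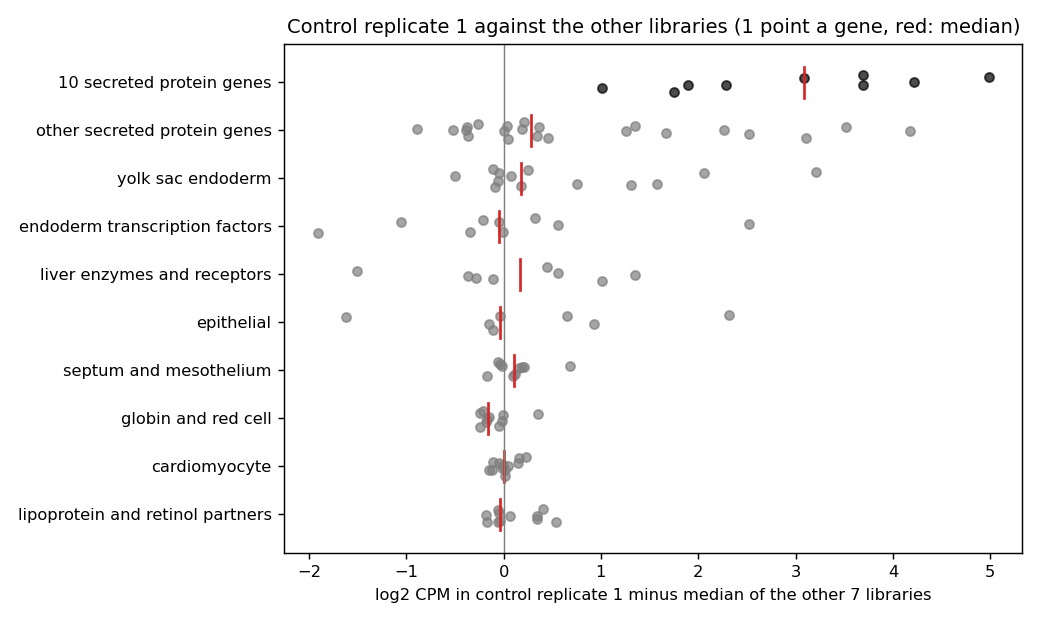
log2 CPM in control replicate 1 minus the median of the other 7 libraries (horizontal axis) for each tested gene of the 10 secreted protein genes and of 9 comparison lists, 1 point a gene, with the median of each list in red. The secreted protein genes lie between 1.01 and 4.99, while the list medians of the others lie between −0.16 and 0.28.

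Genes of lipoprotein assembly, plasma lipid enzymes, lipoprotein receptors and retinol uptake were also compared between the groups. None of these 11 genes was called in either fit. Of all genes, 0.343% were called lower and 0.515% higher with all libraries, and 0.164% and 0.0895% without control replicate 1. A count of 0 of 11 is thus near the background. Of the 11, 3 had an unadjusted p under 0.05 by edgeR with all libraries and 1 without control replicate 1. Their summed CPM was 487 in control replicate 1 and 439 to 553 in the other libraries.

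By the root mean square difference of centred log2 CPM over the 8 libraries, the 10 genes outside the group with a mean of at least 1 CPM nearest to the mean profile of the secreted protein genes were Gm18101, Gm12286, Snord80, Gm12960, Gm4617, Gm10478, 4933404O12Rik, Gm17112, Avil and Gprin2, at 0.77 to 0.84, among 14297 candidates. Their steps were smaller, at 0.54 to 1.19 in control replicate 1, and Gm4617 had its highest value in control replicate 3. None of these 10 is on a list of liver or yolk sac genes used here. The minimum of 1 CPM kept out listed genes such as Spp2, Plg, Fgg and S100g, so that their absence was fixed by it.

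Ranked by the difference of control replicate 1 alone, the 10 leading genes outside the group with a mean of at least 1 CPM were Zfp990, Eno1b, Srp54b, Gm4735, Gm5518, Gm23935, Xlr3b, Amn, Apoo-ps and Sox3. Amn was the only yolk sac endoderm marker among them, and Sox3 the only gene called between the groups (edgeR adjusted p = 0.0112, and 0.0605 without control replicate 1). With no minimum of mean CPM, a choice made after the values were seen, the 20 leading genes held 5 of the 10 secreted protein genes. They also held 3 further plasma protein genes (Spp2, Plg and Fgg) and S100g. The secreted protein genes were chosen by control replicate 1, on which this ranking rests. Fga, Fgb, Spp2, Plg and Fgg reached the total count needed for testing only through that library. These numbers of genes are therefore a description and have no test.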

How the data were processed

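RNA-seq libraries from ventricular tissue (4 cKO, 4 control; poly(A) selection, paired-end reads) were used as processed by the authors. Deposited by the authors were a table of unnormalized counts, 1 row a gene symbol, and a table of TPM, which are scaled for transcript length, each with 1 column per library; 0 columns stayed unused. The submitters' processing notes name FastQC, Trim Galore 0.6.7, HISAT2 2.2.1, StringTie 2.2.1, featureCounts and DESeq2. The strand setting of the counting is not given in the sources used here, so that reads of Afp and Apoa4 and of the antisense genes overlapping them cannot be told apart, although those had 0 counts. The methods name GRCm39, but for 37850 genes the starts in the TPM table lay at most 1000 bases from the GRCm38 annotation in 85.8% and from the GRCm39 annotation in 3.26%, so positions are given as GRCm38. The read length is given as 150 bp in the methods and labels and 100 bp in the series text.

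Of the 62288 count values from 1 to 10, 65.5% were even, with 18516 values of 2 and 9094 of 1, as where both reads of a pair are counted. A count of 0 was therefore taken to allow 6 counts, or 3 such pairs (0.106 to 0.125 CPM), and the interval of a ratio used halved counts. Intervals and floors cover counting error only, at 95%. Libraries held 47559845 to 56660938 counts.

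Genes with at least 8 counts in total (26820) were tested by the quasi-likelihood method of edgeR 4.0.16 with TMM scaling (R 4.3.3), once on 8 libraries and once without control replicate 1, with adjustment over all of them and a threshold of 0.05. log2 CPM used a prior count of 2. Exact permutation tests were two-sided. Embryos are separate biological replicates by the series text. Alternatives were DESeq2 1.42.0, limma-voom and limma on log2 TPM (limma 3.58.1, pseudocounts 1 and 0.1), DESeq2 size factors, filterByExpr, no filter, a replicate block and each library left out. The tests were tried on simulated data.

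The members and lists were chosen with earlier results of these data known. Named were the 10 genes, genes of 4 plasma protein and endoderm lists that were called, highest or lowest in control replicate 1, the 10 genes nearest in profile and the 10 with the largest difference in control replicate 1 (mean of at least 1 CPM), Pkn2 and 6 tissue markers. Other named genes were chosen after their values were seen. Promoter sequences are from RefSeq (GRCm38.p6), with 9 of 10 genes matched. Results for 2 further genes are not reported here. Proteomic data were not analysed here.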

Additional observations from a re-analysis of the deposited data

Results flagged for a closer look

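Within groups of 4 libraries, the gap of the highest or lowest library to its neighbour was divided by the range of the group, and 10 of the 33 groups read exceeded the 95% limit for 4 values. Chance gives about 1 in 20 for groups that are independent and not chosen by their values. Neither holds here, since the groups share libraries and control replicate 1 chose the genes, so that the count is not set against that rate. Among the secreted protein genes these were Afp (0.872), Apoa1 (0.931), Fga (0.924) and Fgb (a ratio of 1, the whole range), each for the highest control library, control replicate 1. The genes were chosen by that library, so these values are a description. Ttr, Rbp4, Apoa2, Apoa4 and Apob did not exceed the limit in any group with more than 6 counts.

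The summed CPM of marker lists gave the others. In the control group the highest library stood apart for yolk sac endoderm (0.848, control replicate 3), epithelial genes (0.882, control replicate 4), septum and mesothelium genes (0.841, control replicate 3) and lipoprotein and retinol genes (0.854, control replicate 2). Endoderm transcription factors gave 0.847 for the highest cKO library, cKO replicate 4, and 0.832 for the lowest control library, control replicate 1. None of these sums had control replicate 1 as its highest library. Prox1 dominates the endoderm factor sum, Slc39a8, Dpp4 and Lrp2 the yolk sac sum, and Krt8, Krt18 and Krt19 the epithelial sum. Genes at low counts therefore hardly move these sums. Gene by gene, 6 of 13 yolk sac endoderm markers and 1 of 9 endoderm factors were highest in control replicate 1.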

How the results depend on the processing

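No secreted protein gene was called by edgeR in either set of libraries, but with all libraries DESeq2 called 2 (Ttr and Apob), the fit without a filter on low counts 4 (Afp, Ttr, Apoa1 and Apob) and the replicate block 2 (Afp and Ttr). Without control replicate 1 the fit without a filter called 1 (Apob). The cause was not tested. Libraries sharing a number were not treated as pairs, with correlations of −0.19, −0.03, 0.01 and −0.14 over 14302 genes. Of the other secreted genes, 1 was called with all libraries (Itih3), 0 by limma-voom, filterByExpr and limma on log2 TPM with either pseudocount, 5 without a filter, and 0 to 1 with each library left out in turn. Without control replicate 1, 3 were called without a filter and 0 otherwise. The share of all genes called under each alternative is not given here, so that these counts of called genes have no background.

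Rbp4 reversed with all libraries under limma-voom (0.21), the replicate block (0.16) and limma on log2 TPM (0.088 and 0.26). With each library left out in turn it ranged from −0.41 to 0.81, and Apoa2 from −0.49 to 0.092, the high end in both without control replicate 1. Without control replicate 1, Apoa2 reversed under the replicate block (−0.12), and with a further library left out it ranged from −0.15 to 0.33, and Afp from −2.16 to 0.0034, the latter without control replicate 3. The other alternatives kept the direction of the fold changes. The difference of control replicate 1 was above 0 for all 9 genes under DESeq2 size factors and log2 TPM with pseudocounts of 1 and 0.1, but was smaller with log2(TPM + 1): 3.33 for Afp and 0.30 for Apob. Low counts limit Alb, Apoa4, Fga and Fgb in most libraries, and Afp, Apoa1 and Apob in some, where single cKO libraries held 6 counts or fewer.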

Other observations

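Several genes with a large difference in control replicate 1 shared it with 2 cKO libraries, a pattern noticed after the values were seen. Zfp990, a zinc finger gene, had 370 counts in control replicate 1, 267 and 355 in cKO replicates 2 and 3, and 1 to 5 in the other 5 libraries. Eno1b, an enolase gene whose counts are uncertain because of near-identical copies, had 9832, 8233 and 7402 counts in the same 3 libraries and 578 to 763 in the others. Gm4735 and Gm8483 had the same 3 libraries at the top, with 1644, 1464 and 1291 counts against 448 to 511, and 76, 77 and 69 against 1 to 6. These 3 libraries did not stand together for the secreted protein genes: cKO replicates 2 and 3 held 5 and 4 counts of Afp and 6 and 2 of Apoa1.

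Capn11, a calpain known from testis, had the largest difference of all genes tested, with 325 counts in control replicate 1 and 0 to 7 in the other libraries. Srp54b, a signal recognition particle gene whose counts are uncertain because of near-identical paralogs, had 1022 counts there and 28 to 510 elsewhere.

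Apoc2, the activator of lipoprotein lipase, had 0 counts in every library, but the TPM table listed it at 0.698 in control replicate 1 and 0.173 in cKO replicate 2, with 0 in the other 6. The count and TPM tables thus differed for a further lipoprotein gene, and control replicate 1 was again the highest library in TPM. Gm44805, also at 0 counts, overlaps Apoc2 on the same strand, and its part in the missing counts was not tested.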
